A study of Mus musculus with 6 samples.

Results

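The genes described here encode the proteins of the cytosolic ribosome. They were taken by name from the deposited expression table: protein-coding genes whose symbol starts with Rpl or Rps and a digit, together with Rplp0, Rplp1, Rplp2 and Rpsa, without ribosomal S6 kinases and named pseudogenes. This gave 87 of the 35275 listed genes. Of these, 46 encode core proteins of the large (60S) subunit and 31 core proteins of the small (40S) subunit, which makes 77 core genes. Another 9 are paralogs of core genes (Rpl3l, Rpl7l1, Rpl10l, Rpl22l1, Rpl36al, Rpl39l, Rps4l, Rps27l and Rps27rt). The remaining gene, Rps19bp1, encodes a binding partner of RPS19 and is no ribosomal protein. Fau, whose ribosomal protein is made as a fusion with a ubiquitin-like sequence, has another name and falls outside the rule.

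The study measured RNA from B cells of the spleen in C57BL/6 mice aged 6 to 8 weeks. One group was wild type (WT) and the other carried the CD40LΔ5 genotype, a form of the CD40 ligand gene that the labels name without describing it. All mice, the wild types included, had been given an injection of SRBC (sheep red blood cells, which raise a germinal centre response that needs T cell help), and spleens were taken on day 8. B cells were enriched with a magnetic pan-B kit that leaves the B cells untouched, so other spleen cells can remain. There were 6 libraries, 3 in each group, and the labels do not say whether each came from its own animal, so p-values measure the spread between these libraries, which may be technical.

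The deposited sources do not place the libraries in groups alike. By the sample labels, WT replicates 1, 2 and 3 stand against CD40LΔ5 replicates 1, 2 and 3. In the authors' deposited table of means, the MUT column equalled the mean of WT replicate 1, WT replicate 2 and CD40LΔ5 replicate 2, and the WT column equalled the mean of WT replicate 3, CD40LΔ5 replicate 1 and CD40LΔ5 replicate 3, to within 3.33e-08 FPKM. Only WT replicate 3 and CD40LΔ5 replicate 2 are placed alike by both. Both groupings are given below, and libraries are always called by their labels. Which grouping holds was not tested. The libraries held 24320080 to 27866611 reads on genes. The B cell markers Cd79a, Cd79b, Ms4a1, Pax5 and Cd22 were present in every library, from 171 FPKM for Pax5 to 1999 FPKM for Cd79a.

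Cytosolic ribosomal proteins assemble with ribosomal RNA in the nucleolus into the small subunit, which decodes the message, and the large subunit, which forms the peptide bond. Their mRNAs are among the most abundant of growing cells and begin with a 5′ terminal oligopyrimidine (TOP) tract, a run of C and T bases at the start of transcription through which mTORC1 and LARP1 control their translation. Activated B cells enlarge their ribosome supply as they divide, and plasma cells use it to make antibody. The genome also holds many processed pseudogenes of these genes, which are intronless copies of their mRNAs.

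The start sites of several of these genes are shown first, since the pyrimidine tract is the feature the family is known for. They were picked from the 20 genes with a run of at least 6 C or T over the annotated start base. The lines thus do not show how common the run is among the members. Values of the genes shown are discussed below. RefSeq promoter windows, on GRCm38.p6, were found for 66 of the 87 genes. Each line gives 30 bases on the coding strand, with the annotated start base at position 16 and the unbroken run of C and T over that base in capitals.
Rps27: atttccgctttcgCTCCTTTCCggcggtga
Rps27rt: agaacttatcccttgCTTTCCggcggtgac
Rps6: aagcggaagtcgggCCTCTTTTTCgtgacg
Rps15a: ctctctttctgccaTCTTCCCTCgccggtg
Rps18: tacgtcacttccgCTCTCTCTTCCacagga
Rpl28: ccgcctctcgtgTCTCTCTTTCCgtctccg
Rpl34: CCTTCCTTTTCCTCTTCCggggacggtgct
Rpl38: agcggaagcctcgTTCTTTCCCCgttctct

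These windows lie at chr3:90213634-90213663 (minus strand) for Rps27, at chr9:114982725-114982754 (minus) for Rps27rt, at chr4:86857353-86857382 (minus) for Rps6 and at chr7:118116133-118116162 (minus) for Rps15a. Those of Rps18 and Rpl28 lie at chr17:33955651-33955680 (minus) and chr7:4792950-4792979 (plus). Those of Rpl34 and Rpl38 lie at chr3:130730323-130730352 (minus) and chr11:114668565-114668594 (plus), and the run of Rpl34 goes on beyond the left edge of its window. A run of at least 6 C or T over the start base was present in 20 of the 66 genes with a window. Counted over windows, of which some genes have several, it was present in 25.6% of 78 member windows and in 7.25% of all 32851 windows of the same length. A start that is annotated a few bases away from the one used in the cell would miss the run. Within the 300 bases of the window, the letters CTTTCC, which can lie inside such a run, were found on either strand in 51.3% of member windows and 26.6% of all windows. The letters CCGGAAG, the core of sites bound by ETS family factors, were found on either strand in 34.6% of member windows and 8.86% of all windows. A match is a description of the letters and not of a bound site.

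The core genes were among the most highly expressed genes of these B cells. Their values are in FPKM, reads per kilobase of gene length scaled to the reads on genes of the library. Over the 6 libraries the mean FPKM of the 77 core genes had a median of 1285, against 11.1 for the 11252 genes whose mean reached 1 FPKM. Of the 94 genes with a mean above 1000 FPKM, 51 were members. All 77 core genes, 6 of 9 paralogs and Rps19bp1 reached a mean of 1 FPKM, which made 84 genes that entered the tests. The other 3, Rpl3l, Rpl10l and Rpl39l, are described with the paralogs. The members lie on 19 chromosomes, with 14 on chromosome 7, 7 on chromosome 11 and 4 on the X chromosome.

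The small-subunit genes had a median of 1645 FPKM and the large-subunit genes one of 1133 FPKM. Rps27, a zinc finger protein of the small subunit (chromosome 3, 90212725 to 90213615 in GRCm38-type coordinates), was the highest at 11830, 12473 and 8058 FPKM in WT replicates 1 to 3 and 8126, 11067 and 9887 FPKM in CD40LΔ5 replicates 1 to 3. Its gene length in the table, 255 bases, is the shortest of the core genes, so 1 read weighs most in its FPKM. In reads, other core genes stood above it. Rpl13a had 2955 to 4331 RPM (reads per 1000000 reads on genes of the library) and Rpsa 2696 to 3442 RPM, against 2055 to 3181 RPM for Rps27. Both were above Rps27 in all 6 libraries. The next small-subunit genes by FPKM were Rps12 at 3215 ± 578 FPKM (SD, n = 6) and Rps14 at 2836 ± 369 FPKM (SD, n = 6). RPS14 lies near the decoding platform of the subunit. The lowest small-subunit genes were Rps15a at 234.7 ± 32.7 FPKM, Rps20 at 349 ± 35.9 FPKM and Rps19 at 491 ± 59.5 FPKM (SD, n = 6). RPS19 is the protein most often affected in Diamond-Blackfan anaemia. No small-subunit gene was below 100 FPKM.

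In the large subunit the highest gene was Rplp1, a protein of the acidic stalk that recruits elongation factors. It measured 4586, 4459 and 3512 FPKM in WT replicates 1 to 3 and 3533, 4204 and 3645 FPKM in CD40LΔ5 replicates 1 to 3. Rpl17 followed at 2749 ± 455 FPKM and Rpl13a at 2560 ± 380 FPKM (SD, n = 6). Most core genes lay close together: 30 of 77 had a mean between 1000 and 2000 FPKM, 20 between 2000 and 5000, 15 between 500 and 1000 and 8 between 100 and 500. Of 76 pairs of neighbours in the order of levels, 65 differed by less than the SD of either gene over libraries. Rps27 alone exceeded 5000 FPKM.

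**Figure D1:**
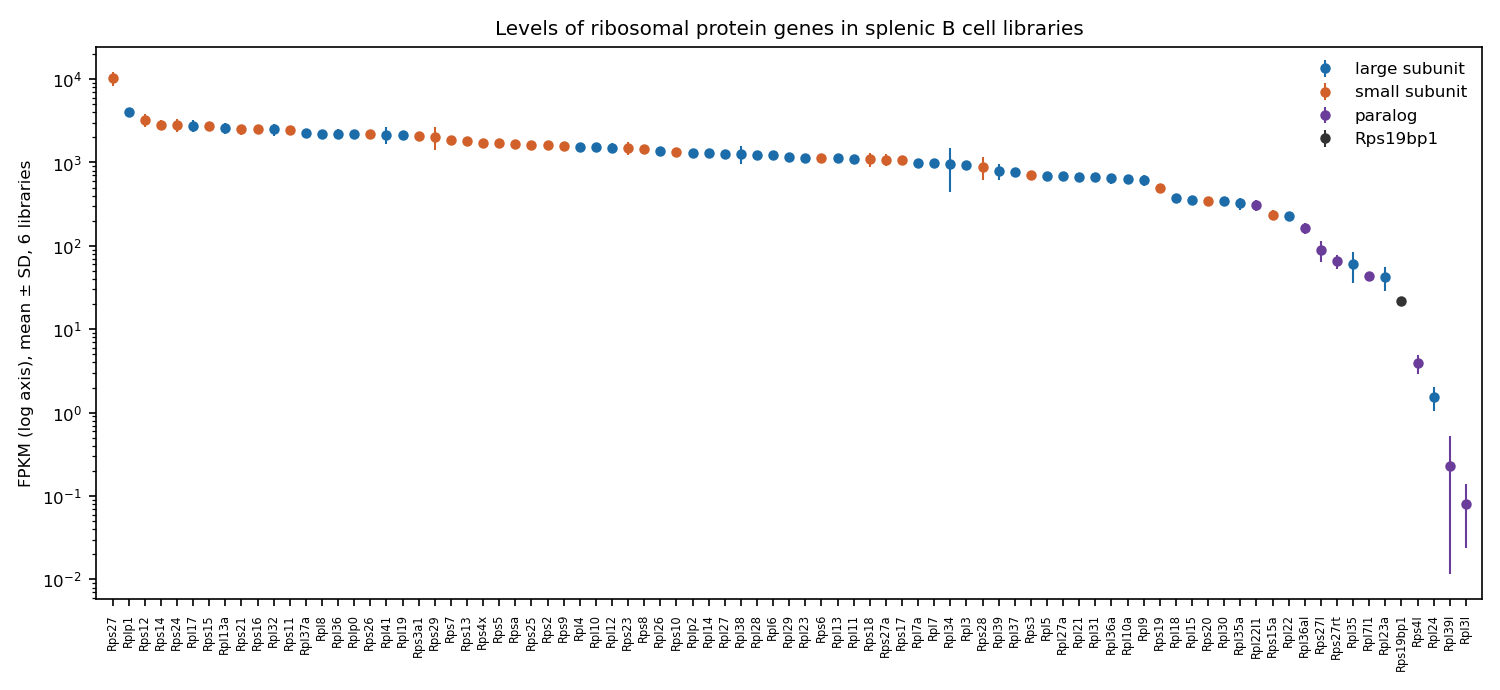
Mean FPKM over 6 libraries (log axis) with SD as bars, for ribosomal protein genes above 0, in order of level; colours give the subunit or class. Rps27 stands highest at 10240 FPKM and Rpl24 is the lowest core gene at 1.53 FPKM; Rpl10l, at 0 in all libraries, is not drawn.

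Only 3 core genes, all of the large subunit, lay below 100 FPKM. Rpl24, whose protein forms part of a bridge between the subunits, had 1.16, 2.004 and 1.23 FPKM in WT replicates 1 to 3 and 1.79, 2.08 and 0.90 FPKM in CD40LΔ5 replicates 1 to 3, which rest on 17 to 35 reads per library. Rpl23a, a protein at the exit of the peptide tunnel, measured 41.9 ± 13.3 FPKM, and Rpl35, its neighbour at that exit, 59.8 ± 23.5 FPKM (SD, n = 6). Since a ribosome holds one copy of each of these proteins, their place in the order was checked against the annotation. These 3 genes were also the 3 core genes with the largest share of exon bases covered by another listed gene, counted on either strand in the GENCODE annotation of GRCm38: 66.2% for Rpl35, with Arpc5l and Wdr38, 59.7% for Rpl23a, with Tlcd1, and 47.0% for Rpl24, with Gm28037. The next gene, Rpl13a, had 29.4%, 72 of 77 core genes had under 25%, and 59 had no overlap. The library kit does not mark the strand and the counting tool is not given in the sources used here, so the FPKM of these 3 genes is uncertain as a level. Gm28037 lies on the same strand as Rpl24, so a strand mark would not separate this pair, and it was at 0 FPKM in all 6 libraries. Whether the overlap set their values was not tested.

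Between libraries the core genes moved together. In 68 of the 77 core genes, WT replicate 3 and CD40LΔ5 replicate 1 both lay below the other 4 libraries, a pattern shown by 10.1% of all genes tested. WT replicate 3 was the lowest library in 58 core genes and CD40LΔ5 replicate 1 in 12, while WT replicate 2 was the highest in 36 and WT replicate 1 in 34. The median deviation of the tested members from their own mean, in log2(FPKM + 1), was 0.15 and 0.17 in WT replicates 1 and 2, -0.21 in WT replicate 3, -0.16 in CD40LΔ5 replicate 1, and 0.03 and 0.01 in CD40LΔ5 replicates 2 and 3. The libraries that stood lowest thus carry different labels, but both are in the WT column of the table of means. In bulk RNA, fewer cells of a type and less RNA per cell cannot be told apart.

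**Figure D2:**
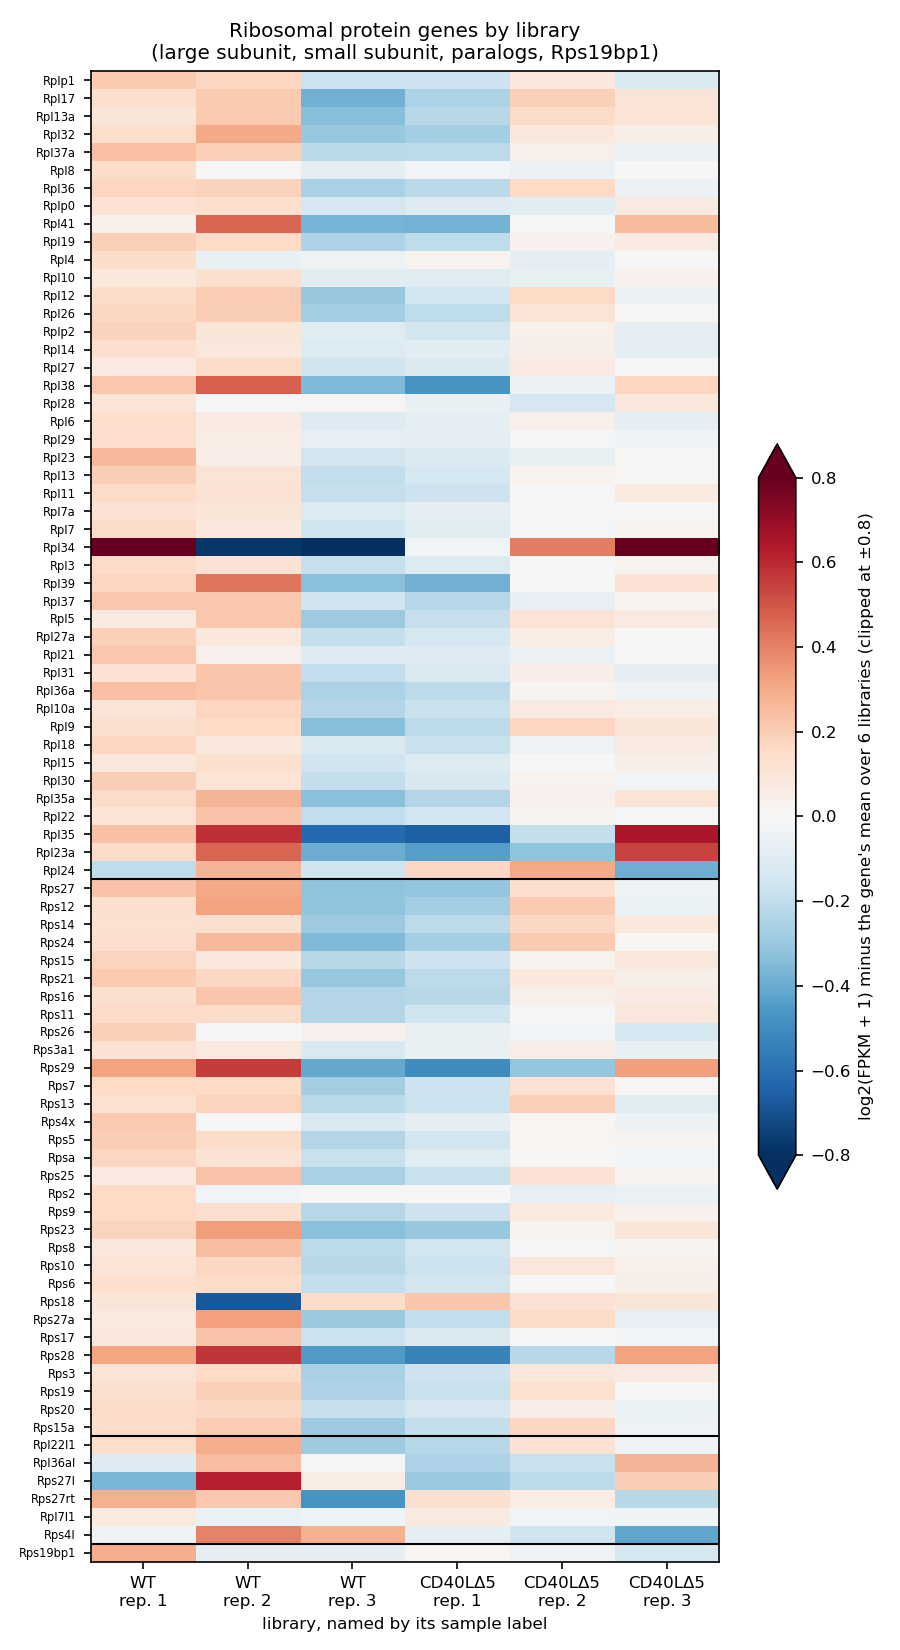
Rows are tested ribosomal protein genes and columns are libraries; colour is log2(FPKM + 1) minus the gene's mean over the 6 libraries, clipped at 0.8 in either direction, with large-subunit, small-subunit, paralog and Rps19bp1 rows separated by lines. WT replicate 3 and CD40LΔ5 replicate 1 are blue in most rows, and the rows of Rpl34 and Rps18 depart from the rest.

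The other 9 core genes did not have that pattern, Rpl4, Rpl8, Rpl24, Rpl34 and Rps18 among them. They included the steadiest of the core genes. Rpl8, next to the catalytic centre, had a coefficient of variation of 5.496% over the 6 libraries, Rpl4, whose long loop lines the exit tunnel, one of 5.79%, and Rpl29, which kept the common pattern, one of 5.82%. The core genes had a median coefficient of variation of 11.4%, the same as that of all genes tested, 25 of 77 were under 10% and 9 were over 20%. In 59 of 77 core genes the highest library was under 1.5 times the lowest, and in 6 it was over 2 times the lowest.

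The most variable core genes were Rpl34 at 54.3%, Rpl35 at 39.3% and Rpl24 at 32.4%. Rps28 and Rps29, 2 of the smallest small-subunit proteins, followed at 31.5% and 31.2% together with Rpl23a at 31.7%. Rps29 measured 2446, 2883 and 1476 FPKM in WT replicates 1 to 3 and 1386, 1580 and 2475 FPKM in CD40LΔ5 replicates 1 to 3. Rps28 measured 1063, 1270 and 623 FPKM and 589, 730 and 1067 FPKM in the same libraries. In both genes CD40LΔ5 replicate 2 joined the low libraries and CD40LΔ5 replicate 3 the high ones, so that 3 libraries stood apart from the other 3. Rpl35 and Rpl23a had the same 3 low libraries. Variation was larger in short genes: the 26 core genes of 255 to 751 bases had a median coefficient of variation of 13.4%, the 25 of intermediate length 10.7% and the 26 of 1242 to 5130 bases 10.3%. Across the 77 core genes, Spearman's rho was -0.37 between gene length and this coefficient and -0.58 between gene length and mean FPKM. These are descriptions across genes, which share the 6 libraries and are no independent replicates.

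Summed over all 87 genes, the members took 24.7%, 21.6% and 16.6% of the FPKM of all genes in WT replicates 1 to 3 and 19.9%, 23.7% and 19.4% in CD40LΔ5 replicates 1 to 3. The share of reads was smaller, 9.01% to 11.6%, since the genes are short. By the labels the share of FPKM was 21.0% ± 2.37 in CD40LΔ5 and 21.0% ± 4.08 in WT (SD, n = 3), a difference far smaller than the spread between replicates. By the table it was 23.3% ± 1.56 in the MUT set and 18.6% ± 1.75 in the WT set (SD, n = 3), and the sets did not overlap. Immunoglobulin genes took 9.13% to 28.3% of FPKM, with the most in WT replicate 3, where the members took least. Without them the members took 27.7%, 28.0% and 23.2% in WT replicates 1 to 3 and 23.4%, 26.1% and 26.7% in CD40LΔ5 replicates 1 to 3. On this base the MUT set of the table held 27.3% ± 1.03 and its WT set 24.4% ± 1.98 (SD, n = 3), and the sets overlapped through CD40LΔ5 replicate 3. The ratio of summed small-subunit to large-subunit FPKM was 1.05 to 1.11 over the libraries. By the table it was 1.09 ± 0.019 in the MUT set and 1.06 ± 0.0064 in the WT set (SD, n = 3), and the sets did not overlap. By the labels it was 1.07 ± 0.024 in CD40LΔ5 and 1.08 ± 0.028 in WT, and the groups overlapped. The ratio leans on Rps27, which held 8058 to 12473 FPKM of small-subunit sums of 50556 to 68685 FPKM. Since Rps27 itself stood apart between the table's sets, their separation here is no measure of the small subunit as a whole.

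**Figure D3:**
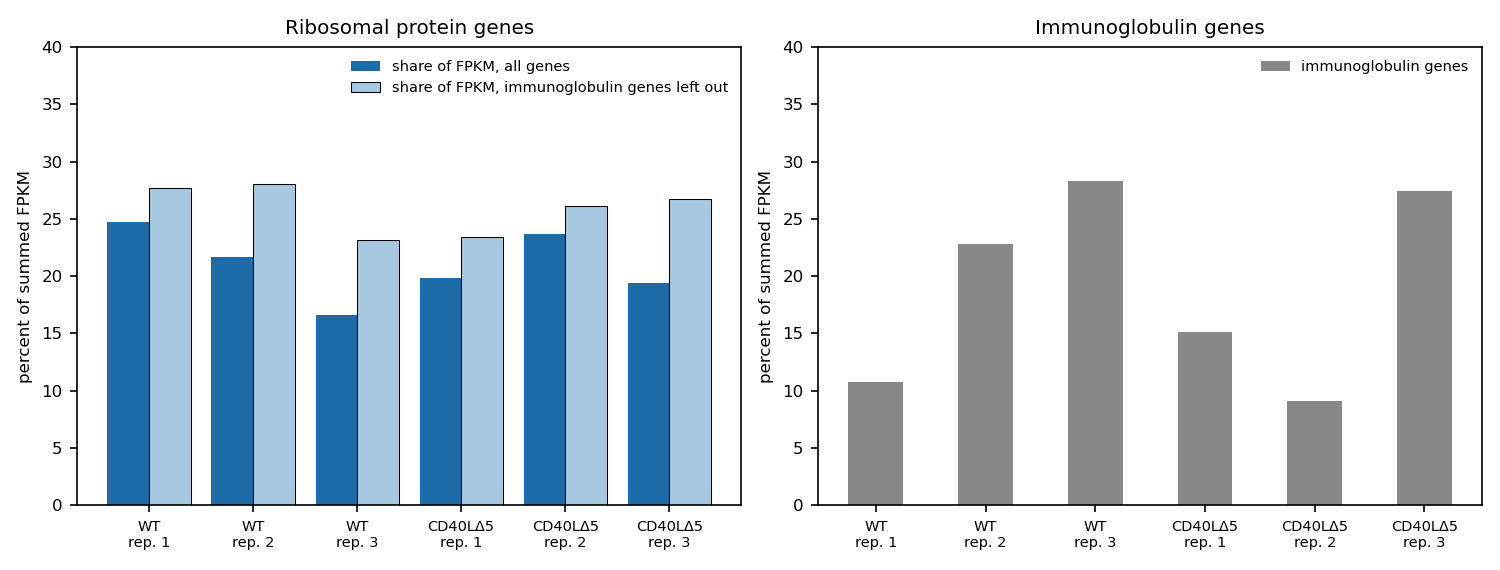
Left, the share of summed FPKM held by the 87 ribosomal protein genes in each library, over all genes (dark) and with immunoglobulin genes left out (light); right, the share held by immunoglobulin genes. The dark bars run from 16.6% to 24.7% and the light bars from 23.2% to 28.0%, with WT replicate 3 lowest in both.

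Among the paralogs, Rpl22l1 was the one whose FPKM reached that of its parent. Rpl22 and Rpl22l1 encode related large-subunit proteins with opposing roles in lymphocyte development. Rpl22l1 measured 335, 373 and 250 FPKM in WT replicates 1 to 3 and 260, 330 and 298 FPKM in CD40LΔ5 replicates 1 to 3. Rpl22 measured 245, 265.5 and 198 FPKM and 204, 231 and 225 FPKM in the same libraries. In FPKM, Rpl22l1 was thus above Rpl22 in all 6 libraries and made up 57.3% ± 1.26 of the pair (SD, n = 6). That proportion stayed between 55.8% and 58.9%. This order rests on the gene lengths used, 489 bases for Rpl22l1 and 2051 bases for Rpl22. In reads the order was reversed in all 6 libraries, with 406 to 544 RPM for Rpl22 and 122 to 183 RPM for Rpl22l1.

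Rpl36al, a retrocopy of Rpl36a that is itself expressed, made up 20.5% ± 2.85 of its pair (SD, n = 6). It was highest in CD40LΔ5 replicate 3 at 197 FPKM and lowest in CD40LΔ5 replicate 1 at 137 FPKM. Rpl7l1, a relative of Rpl7 with a role in ribosome assembly, was the steadiest paralog at 43.7 ± 1.81 FPKM and 4.25% of its pair. Rps27l, a p53 target, measured 89.9 ± 25.3 FPKM and reached 135 FPKM in WT replicate 2, where it was highest, and 67.4 FPKM in WT replicate 1. Rps27rt measured 65.1 ± 12.4 FPKM and made up 0.638% of its pair with Rps27 (SD, n = 6). The coding sequences of Rps27 and Rps27rt are identical over 252 bases, so reads from that stretch cannot tell them apart and the value of Rps27rt is uncertain.

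The other paralogs were near or at the limit of detection. Rps4l, a relative of the X-linked Rps4x, measured 3.74, 5.36 and 4.88 FPKM in WT replicates 1 to 3 and 3.59, 3.33 and 2.63 FPKM in CD40LΔ5 replicates 1 to 3, from 69 to 127 reads per library. Rpl39l, which is known from the testis, had 0 to 18 reads per library, with 18 in WT replicate 3. Rpl3l, the form of heart and skeletal muscle, had 0 to 5 reads. Rpl10l, the autosomal testis form of the X-linked Rpl10, had 0 reads in all 6 libraries. Rps19bp1 measured 21.8 ± 2.57 FPKM (SD, n = 6).

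Because copies of these genes can take up their reads, listed genes whose sequence matched at least 80% of a member's coding sequence at 90% identity or more were counted. Of the 77 core genes, 73 had at least 1 such copy, with a median of 6 and up to 51 for Rpl21. In all there were 679 copies, of which 147 reached a mean of 1 FPKM and 7 one of 100 FPKM. In 67 of 77 core genes the copies held under 5% of the reads of gene and copies together, and the median was 0.650%. The highest shares were 75.8% for Rpl24, 35.6% for Rpl23a, 20.1% for Rpl34, 18.4% for Rpl35, 18.0% for Rpl41, 11.4% for Rps19, 11.1% for Rps18 and 7.44% for Rpl38. Gene and copies together still held only 3.26 to 5.55 RPM for Rpl24, 29.4 to 47.1 RPM for Rpl23a and 42.2 to 97.4 RPM for Rpl35. For Rps19 and its copies the sum was 1223 to 1677 RPM. The copy of Rps19 followed its gene from library to library. Rps19-ps6 had 412, 441 and 289 FPKM in WT replicates 1 to 3 and 346, 403 and 381 FPKM in CD40LΔ5 replicates 1 to 3, and Rps19 itself had 533, 557, 412, 431, 532 and 484 FPKM in the same order. In both, WT replicate 2 was highest and WT replicate 3 lowest, whereas Rpl34 and Rps18 and their copies did not move together.

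Rpl34 and its processed pseudogene Rpl34-ps1 (chromosome 6, 71124610 to 71124963, plus strand) differ at 2 of 351 coding bases in the annotation, T132C and C318G, counted from 1 at the first base of the start codon. The stretches around both positions are shown because they are the only places of the coding sequence where a read can be assigned to one of the genes, with the differing base in capitals. The first pair covers bases 117 to 147 and the second pair bases 303 to 333.
Rpl34: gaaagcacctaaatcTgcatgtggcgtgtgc
Rpl34-ps1: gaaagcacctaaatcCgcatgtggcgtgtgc
Rpl34: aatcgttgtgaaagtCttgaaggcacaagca
Rpl34-ps1: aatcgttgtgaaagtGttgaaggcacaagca

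Rpl34 measured 1597, 477 and 311 FPKM in WT replicates 1 to 3 and 808, 1089 and 1463 FPKM in CD40LΔ5 replicates 1 to 3. Rpl34-ps1 measured 17.6, 940 and 851 FPKM and 460, 591 and 16.8 FPKM in the same libraries. The pseudogene was thus near 17 FPKM in WT replicate 1 and CD40LΔ5 replicate 3, the libraries in which Rpl34 was highest, and at 460 FPKM or more in the other 4. In RPM, Rpl34 with all of its copies held 1143, 675 and 524 in WT replicates 1 to 3 and 739, 986 and 1047 in CD40LΔ5 replicates 1 to 3. Rpl34 alone ran from 221 to 1136 RPM, so the sum varied less, and WT replicate 3 was lowest in both. How reads that match several genes were assigned is not given in the sources used here.

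Rps18, a protein of the head of the small subunit, measured 1142, 666 and 1179 FPKM in WT replicates 1 to 3 and 1244, 1156 and 1140 FPKM in CD40LΔ5 replicates 1 to 3. Only WT replicate 2 stood apart. Its pseudogene Gm11361 (chromosome 13, 28257636 to 28258094, plus strand), with 94.3% identity over 438 bases, measured 395, 864 and 10.7 FPKM and 11.9, 358 and 353 FPKM in these libraries. Gm11361 thus stood at 3 levels, near 11 FPKM in WT replicate 3 and CD40LΔ5 replicate 1, between 353 and 395 FPKM in 3 libraries, and at 864 FPKM in WT replicate 2, where Rps18 was lowest. Rps18 and its copies together held 1499, 1168 and 1364 RPM in WT replicates 1 to 3 and 1440, 1500 and 1478 in CD40LΔ5 replicates 1 to 3, so WT replicate 2 remained the lowest. The causes of these patterns were not tested. Differences of Rpl34 and Rps18 between groups are uncertain for this reason.

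**Figure D4:**
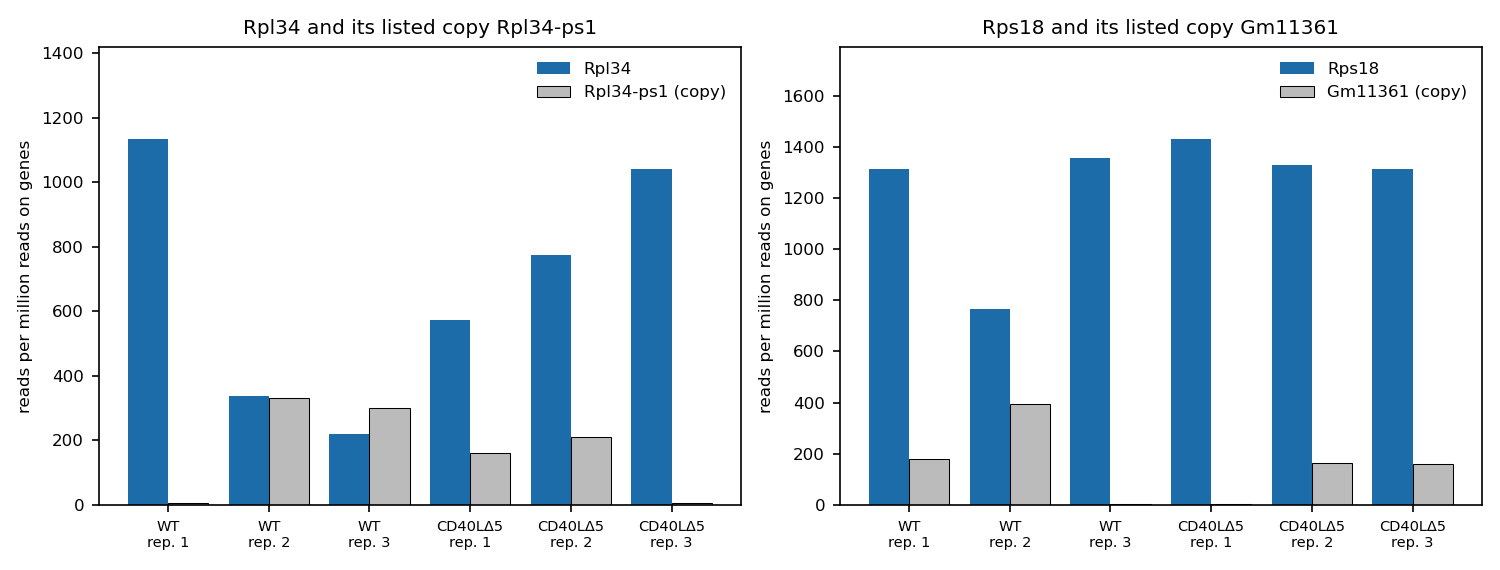
Level (RPM) of Rpl34 and Rpl34-ps1 (left) and of Rps18 and Gm11361 (right) in each library. Rpl34-ps1 is near 0 in WT replicate 1 and CD40LΔ5 replicate 3, and Gm11361 is near 0 in WT replicate 3 and CD40LΔ5 replicate 1.

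By the sample labels, no ribosomal protein gene differed between CD40LΔ5 and WT B cells past the threshold, in either direction. The test was limma on log2(FPKM + 1) over all 11252 genes with Benjamini-Hochberg adjustment, and 0 of 84 members were called, as were 0% of all genes. At an unadjusted p under 0.05 there was 1 member, against 1.24% of all genes. It was on the lower side, where 0.32% of all genes were, and 0 members were on the higher side, where 0.915% of all genes were. limma voom on recovered reads also called 0 members, with 0 at an unadjusted p under 0.05, against 1.16% of all genes. The mean was lower in CD40LΔ5 in 75 of 84 members and higher in 9, against 44.5% of all genes that were lower and 55.5% that were higher, and under quantile normalisation this turned, with 56 of 84 higher and a median log2 difference of 0.02. As deposited the median was -0.07, against 0.01 over all genes tested, and lay within the SD of 0.17 between libraries of a group. Without WT replicate 1, WT replicate 2 or CD40LΔ5 replicate 1 the median was -0.01, -0.00 and -0.02, with 37, 39 and 36 of 84 members higher. The subunits did not part, with 41 of 46 large-subunit and 28 of 31 small-subunit genes lower and medians of -0.07 and -0.06.

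The member with the smallest p on the lower side was Rps4l, whose values are given above. It measured 3.18 ± 0.50 FPKM in CD40LΔ5 and 4.66 ± 0.83 FPKM in WT (SD, n = 3), a log2 difference of -0.43 ± 0.15 (SE) with a limma adjusted p of 1.00. All 3 CD40LΔ5 libraries lay below all 3 WT libraries in Rps4l and in Rps26, 2 of 84 members, against 1.32% of all genes. Rps26, a protein at the mRNA exit of the small subunit, had 2470, 2169 and 2215 FPKM in WT replicates 1 to 3 and 2083, 2136 and 1963 FPKM in CD40LΔ5 replicates 1 to 3, and its log2 difference was -0.15 ± 0.17 (SE). No member lay above in all libraries, against 2.98% of all genes. The next smallest p on the lower side were those of Rpl37, Rps29 and Rps28, with log2 differences of -0.18 ± 0.16, -0.31 ± 0.33 and -0.29 ± 0.33 (SE). On the higher side they were those of Rpl34 at 0.81 ± 0.59, Rps18 at 0.29 ± 0.24, Rpl24 at 0.06 ± 0.23 and Rpl9 at 0.04 ± 0.19 (SE). All these differences were smaller than 2 SE apart from that of Rps4l. Rpl34 and Rps18 are the members whose pseudogenes varied, and single libraries decided their values. Without WT replicate 3 the difference of Rpl34 was 0.32 and without WT replicate 1 it was 1.49, and without WT replicate 2 that of Rps18 was 0.02.

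By the table's sets, most members were higher in the MUT set, and again none passed the threshold. Of 84 members, 80 were higher and 4 lower, against 62% of all genes that were higher and 38% that were lower. The median log2 difference was 0.24, against 0.05 over all genes, and the SD between libraries of a set was 0.10. The call rule of an adjusted p under 0.05 took 0 of 84 members and 0.0267% of all genes, which were the 3 genes Rgs18, Map3k19 and Ighd5-3, named here after their values were seen. The smallest adjusted p of a member was 0.343 (limma). At an unadjusted p under 0.05 there were 16 members on the higher side, against 9.39% of all genes, and 0 on the lower side, against 3.61%. Voom called 0 members, with 45 at an unadjusted p under 0.05, against 13.3% of all genes. The MUT set lay wholly above the WT set in 42 of 84 members, 22 of 46 large-subunit and 19 of 31 small-subunit genes among them, against 12.1% of all genes, and the reverse occurred in 0 members, against 4.79%.

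The 4 members of smallest p on the higher side were Rps15a, Rpl22l1, Rps27a and Rps19. Rps15a, which had 257, 269 and 262 FPKM in the MUT set (WT replicates 1 and 2 and CD40LΔ5 replicate 2) and 191, 204 and 227 FPKM in the WT set (WT replicate 3 and CD40LΔ5 replicates 1 and 3), differed by 0.34 ± 0.09 (log2, SE; limma adjusted p = 0.343). Rpl22l1 measured 346 ± 23.5 FPKM against 269 ± 25.03 FPKM (SD, n = 3; log2 difference 0.36 ± 0.10 SE). Rps27a, a fusion of ubiquitin with a small-subunit protein, measured 1215 ± 108 FPKM against 937 ± 76.0 FPKM (SD, n = 3; log2 difference 0.37 ± 0.12 SE). Rps19 measured 541 ± 14.3 FPKM against 442 ± 37.3 FPKM (SD, n = 3; log2 difference 0.29 ± 0.10 SE). In each of these genes the lowest library of the MUT set was above the highest library of the WT set. Rps27 had one of the largest differences, 0.44 ± 0.20 (log2, SE), with 11790 ± 704 against 8690 ± 1037 FPKM (SD, n = 3), and its sets did not overlap. Rps6, the substrate of the S6 kinases, differed by 0.19 ± 0.12 (log2, SE) with sets that overlapped; both were named after their values were seen.

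On the lower side stood Rps18 at -0.31 ± 0.22, Rpl36al at -0.02 ± 0.17, Rpl28 at -0.02 ± 0.12 and Rpl7l1 at -0.00 ± 0.07 (log2, SE). Without WT replicate 2, the library that stood apart in Rps18, the difference of that gene was -0.05. The paralogs as a group stood nearer to 0, with 4 of 6 tested higher and a median of 0.08. Gene length moved with the result: after removal of each library's trend with gene length the median of the 84 members was 0.13, with 68 higher, and it was 0.14 when the members were kept out of that trend. The median over all genes was then -0.00.

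**Figure D5:**
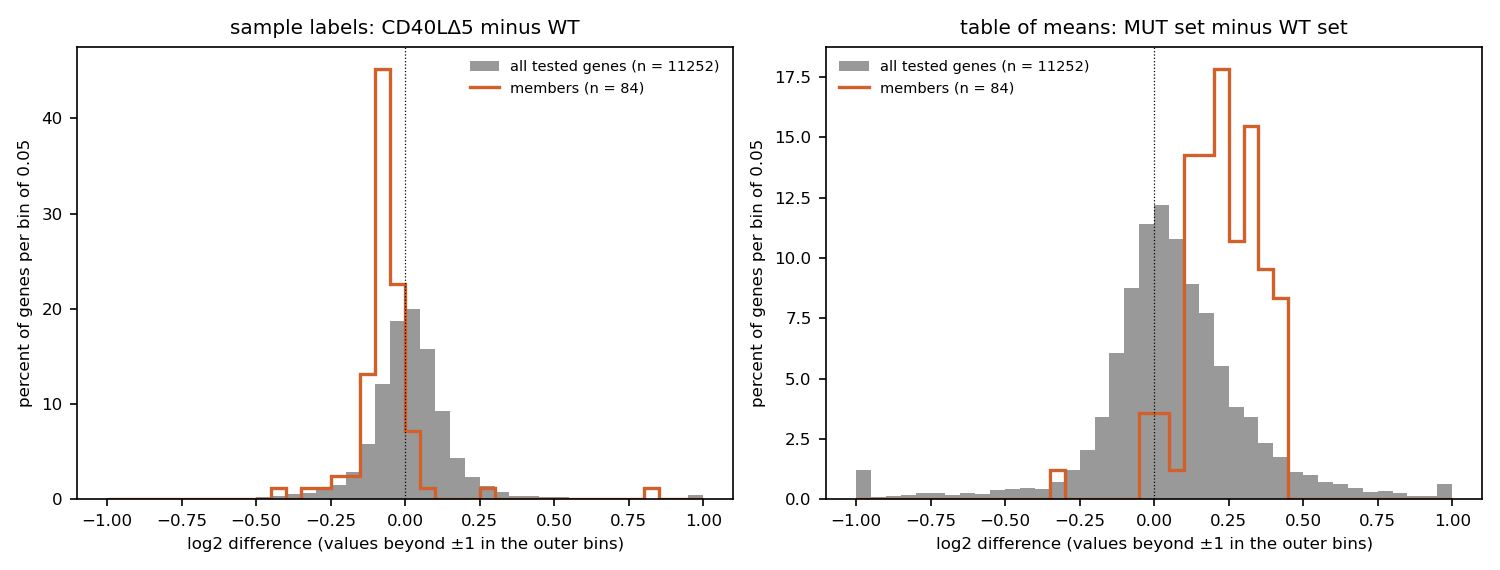
Distribution of log2 differences on log2(FPKM + 1) for all 11252 tested genes (grey) and the 84 ribosomal protein genes (orange outline), by the sample labels (left) and by the table's sets (right); values beyond 1 are in the outer bins. The orange outline has its median at -0.07 on the left and at 0.24 on the right, against 0.01 and 0.05 for all genes.

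The 2 groupings share all 6 libraries, so their values are not independent of each other. Cell markers differed between the table's sets too, though only the T cell sums did not overlap. The summed FPKM of 6 T cell markers was 21.5 to 23.3 in the MUT set and 16.4 to 18.8 in the WT set, with 4 of 5 tested markers higher. For 6 macrophage markers it was 69.5 to 164 against 43.1 to 78.7, with 6 of 6 higher, and for 6 neutrophil markers 63.2 to 72.1 against 37.7 to 506, with 6 of 6 lower. For 6 plasma cell markers it was 1123 to 4981 against 2072 to 4817, with 6 of 6 lower, and for 6 erythroid markers 696 to 900 against 277 to 989, with 5 of 5 tested higher. For 6 B cell markers it was 4421 to 4952 against 4282 to 4570, with 6 of 6 higher, and by the labels 5 of 6 were higher in CD40LΔ5. By the labels, 6 of 6 plasma cell, 6 of 6 macrophage, 5 of 5 tested erythroid and 4 of 5 tested T cell markers were lower in CD40LΔ5 and 6 of 6 neutrophil markers were higher, and the summed plasma cell level was 1346 to 4981 in WT and 1123 to 4817 in CD40LΔ5. No marker on these lists was at 0 in all libraries. The part of these cells in the ribosomal protein values was not tested.

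Fau and Gnb2l1, which belong to the ribosome but not to the naming rule, were examined in the same way. Fau, which encodes RPS30, measured 2322, 2401 and 1730 FPKM in WT replicates 1 to 3 and 1827, 2207 and 2295 FPKM in CD40LΔ5 replicates 1 to 3. It stood among the core genes in level, and WT replicate 3 and CD40LΔ5 replicate 1 were lowest. Gnb2l1, which encodes the ribosome-bound scaffold RACK1, measured 374 to 464 FPKM. Neither gene passed the test in either grouping. The log2 difference of Fau was -0.02 by the labels and 0.25 by the table, and that of Gnb2l1 was 0.01 and 0.14.

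Other mRNAs with TOP tracts and translation factors shifted less. Of 18 such genes 0 passed the test in either grouping. By the labels 14 were lower, with a median of -0.04, and 12 were higher by the table, with a median of 0.06. With the length trend removed the direction by the table turned, with a median of -0.06, 7 higher and 11 lower. Naca, a subunit of the nascent chain complex at the exit tunnel, had the smallest p by the table, with 78.0, 86.7 and 78.7 FPKM in the MUT set and 63.5, 67.4 and 74.2 FPKM in the WT set (log2 difference 0.25 ± 0.09 SE; limma adjusted p = 0.356). Eef1b2, an exchange factor of elongation, differed by 0.18 ± 0.09 and Eif3e, a subunit of initiation factor eIF3, by 0.15 ± 0.08 (log2, SE). Eef1a1, the elongation factor that brings tRNA to the ribosome, was the most abundant of the list at 5822 to 6905 FPKM and differed by 0.04 ± 0.17, and Eef2, the translocase, differed by -0.14 ± 0.13 (log2, SE). The difference between this list and the ribosomal protein genes was not tested.

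Genes that control ribosomal protein synthesis were compared in the same way. Of 16 genes of mTORC1, LARP1 and MYC control, 15 were tested and 0 passed in either grouping. The medians were 0.05 by the labels, with 9 higher, and -0.01 by the table, with 6 higher. After removal of the length trend they were 0.003 by the labels, with 8 higher, and -0.03 by the table, with 5 higher. By the labels the smallest p were those of Rptor, the mTORC1 scaffold, at 0.19 ± 0.09, Mtor, its kinase, at 0.18 ± 0.10, and Tsc1, a subunit of the inhibitory TSC complex, at 0.15 ± 0.09 (log2, SE). In these 3 of the 15 genes all CD40LΔ5 libraries lay above all WT libraries, against 2.98% of all genes. By the table the smallest p was that of Eif4ebp2, a repressor of cap-dependent initiation, at -0.26 ± 0.11 (log2, SE; limma adjusted p = 0.389). Larp1 measured 26.9 to 32.6 FPKM and Myc 25.9 to 33.4 FPKM over the 6 libraries. Mycn, at 0.13 to 0.36 FPKM, was not tested.

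The mitochondrial ribosome, whose 77 listed protein genes are also encoded in the nucleus, served for comparison. Its genes were expressed far lower, 76 were tested and 0 passed the test in either grouping. By the labels 57 were lower, with a median of -0.04, and 59 were higher by the table, with a median of 0.08. With the length trend removed the latter median was -0.02, against 0.13 for the cytosolic members. Mrpl52 had the smallest p by the table, with 135, 141 and 125 FPKM in the MUT set and 88.8, 103 and 93.1 FPKM in the WT set (log2 difference 0.49 ± 0.09 SE; limma adjusted p = 0.343). Mrps30 had the smallest p by the labels, with 12.3, 11.7 and 11.5 FPKM in WT replicates 1 to 3 and 10.6, 9.90 and 10.5 FPKM in CD40LΔ5 replicates 1 to 3 (log2 difference -0.18 ± 0.08 SE). The difference between the 2 kinds of ribosome was not tested.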

How the data were processed

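RNA of 6 B cell samples was sequenced. Per the submitters' processing notes, CASAVA 1.8.2, STAR and DESeq2 were used, without a stated role, with the build mm9. How reads were counted, on which annotation and with which filters is not given in the sources used here. Deposited values are in FPKM for each gene in each library, with the authors' gene length in bases and a table of FPKM means. FPKM times gene length gave whole reads for 100% of values (tolerance 0.01 reads). Since the depth is thus known, 1 read was worth 0.0359 to 0.0411 FPKM for a gene of 1 kb. The kit does not mark the strand, so reads of genes that overlap on opposite strands cannot be told apart.

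Groups came from the sample labels and, as a second grouping, from the libraries whose mean equals each column of the deposited table. limma 3.58.1 in R 4.3.3 (lmFit, eBayes with a trend) was run, two-sided and without covariates, on log2(FPKM + 1). The 11252 genes whose mean over the 6 libraries reached 1 FPKM entered, adjusted by Benjamini-Hochberg at a threshold of 0.05. The log2(FPKM + 1) scale understates changes of low genes. On simulated data, 50 of 11252 genes were changed at each fold size of 1.5, 2, 4 and 8 in the same run. Only genes with a mean log2(FPKM + 1) above 2 were changed. The spread was drawn for each gene on its own, whereas real genes moved together between libraries, so recovery in these data may be lower. By the labels 84% of 2-fold and 50% of 1.5-fold changes were recovered with 11 false calls, and by the table sets 86% and 58% with 18 false calls, so smaller shifts such as those of most members would often be missed. limma voom on the recovered reads was an alternative.

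Copies were found with blastn 2.17.0 against transcripts of the GENCODE annotation of GRCm38, for the 86 members with a coding sequence there. Promoter windows of 250 bases before to 50 after each start came from RefSeq on GRCm38.p6. Printed gene coordinates are the files' own and follow GRCm38, although the notes name mm9: all 87 members have an identifier in that GRCm38 annotation, and 51 have exactly its start and end.

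Named genes are the 3 highest and 3 lowest core genes of each subunit, the 3 most and 3 least variable, all paralogs, Rps19bp1, the 4 members of smallest p per direction and grouping, and up to 4 genes of smallest p of each list. Others serve the copy, overlap and library patterns and were named after their values were seen. The lists were ribosomal proteins outside the rule, translation factors and TOP mRNAs, mTORC1, LARP1 and MYC control, mitochondrial ribosomal proteins, and markers of B cells, T cells, macrophages, neutrophils, erythroid and plasma cells. The members, lists, groupings and alternatives were chosen with earlier results of these data known. Alternatives were other pseudocounts, filters, scalings, variance settings, removal of the length trend, voom, a replicate block and leaving out each library. Some genes of these sets are not reported here.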

Additional observations from a re-analysis of the deposited data

How the results depend on the processing

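In every fit, 0 ribosomal protein genes were called, by the labels and by the table alike. With only the 2 libraries that labels and table place alike there is 1 library on each side and no test, and the median log2 difference was 0.24 by both groupings, where the label median with all libraries was -0.07. Leaving out 1 library moved the label median between -0.18 and -0.00 and the table median between 0.19 and 0.30. The table median was 0.13 with the length trend removed and 0.14 with the members kept out of the trend, an alternative added after seeing the data. The summed share of FPKM differed by 0.33 (log2 ratio, table sets) and by 0.16 without immunoglobulin genes; the cause of these shifts was not tested.

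Over all genes the label grouping called 0 in each setting. The table grouping called 3, with 5 at a pseudocount of 0.1, 0 at a mean of at least 5 FPKM, 1 without a filter, 6 with robust variances, 5 with median scaling, 1 with quantile normalisation and 1 with voom. Leaving out 1 library gave 1 to 16 genes, with 13 without WT replicate 2, 16 without CD40LΔ5 replicate 1 and 1 without CD40LΔ5 replicate 2.

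The direction of several genes near 0 turned. Leaving out 1 library moved Rpl24 between -0.080 and 0.27 and Rpl9 between -0.12 and 0.15 by the labels, and by the table it moved Rpl36al between -0.15 and 0.11, Rpl7l1 between -0.039 and 0.034 and Rpl28 between -0.079 and 0.041. With only the libraries placed alike, Rps18 was -0.028, Rpl37 0.098, Rps29 0.098 and Rps28 0.23 by the labels, and Rpl7l1 was 0.0088 by the table. Under quantile normalisation Rpl36al was 0.11 by the table. None of these differences was past the threshold.

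The labels do not state that replicate numbers pair the libraries. The correlation of deviations from label group means was -0.38, 0.06 and 0.38 for same-numbered libraries 1 to 3. For differently numbered libraries it ran from -0.63 to 0.56. Deviations from the mean of only 3 libraries tie these correlations to each other, so they cannot decide on pairing. With the replicate block the label grouping called 0 genes and 0 members, the member median stayed at -0.07, and 210 genes in place of 139 had an unadjusted p under 0.05. Depth limits Rpl24, Rps4l, Rpl3l and Rpl39l, which rest on at most 127 reads in any library.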
